A study of Homo sapiens with 6 samples.

Results

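Respiratory complex I is the first enzyme of the mitochondrial electron transport chain, and the genes described here encode its nuclear subunits. They are the genes whose symbols begin with NDUFA, NDUFB, NDUFC, NDUFS or NDUFV followed by a number, without NDUFA4 (now counted with complex IV), the assembly factors, antisense genes and pseudogenes. The rule found 36 genes among the 58174 in the files, and it used no measured value. T24, an established line of human bladder cancer cells, was the material throughout. RNA-seq of polyadenylated RNA was available for 3 samples with a scrambled control shRNA (shRNA-NC) and 3 with an shRNA against UBC9 (shRNA-UBC9). Lentiviral infection was followed by puromycin selection. The authors name the pLKO.1 vector for the hairpin against UBC9 and do not name the vector of the control. UBC9 is the E2 enzyme that conjugates SUMO, a small ubiquitin-like protein, to its targets. A single hairpin against UBC9 was used, and whether the selected cells were a pool or a clone is not given in the sources used here. Nor do the labels say whether the 3 samples of a group came from separate cultures, so p-values measure the spread between these samples, which may be technical. The measurement is RPKM, the number of reads scaled to the length of the gene and to the total of mapped reads, so levels of different genes are compared per length. The comparison asks which complex I genes differed between cells with and without knockdown of UBC9.

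Complex I takes electrons from NADH, passes them through a flavin and a chain of iron-sulfur clusters to ubiquinone, and pumps protons across the inner mitochondrial membrane. Its core subunits carry the catalysis and are conserved from bacteria, while the accessory subunits surround them and are needed for assembly and stability. The enzyme is built from modules. The N module oxidizes NADH, the Q module reduces ubiquinone, and the ND1, ND2, ND4 and ND5 modules form the membrane arm, each around a subunit encoded by mitochondrial DNA.

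The libraries held between 28220000 and 36060000 mapped reads, and the ranges of the groups overlapped. Keratin genes KRT7, KRT8, KRT18 and KRT19 were expressed in all samples, and the summed level of the 6 epithelial markers was 938 to 1110 RPKM in shRNA-NC and 426 to 563 RPKM in shRNA-UBC9. All 4 keratins fell, while EPCAM averaged 0.658 RPKM in shRNA-NC and 1.5 RPKM in shRNA-UBC9, with overlapping groups. CDH1 was at 0 in 5 samples and at 0.00449 RPKM in the other, and the uroplakin genes UPK1A, UPK1B, UPK2 and UPK3A and KRT20 stayed below 1 RPKM in every sample, so the defining markers of differentiated urothelium were at or near 0. The summed level of all 7 urothelial markers, nearly all of it GATA3 and PPARG, was 22.9 to 30.1 RPKM in shRNA-NC and 6.5 to 11.2 RPKM in shRNA-UBC9. The 5 leukocyte markers were each below 1 RPKM in every sample, with PTPRC at most 0.102 RPKM. The 6 endothelial and stromal markers summed to 3.8 to 4.48 RPKM in shRNA-NC and 1.57 to 1.91 RPKM in shRNA-UBC9. Within them CDH5 fell from a mean of 2.87 to 0.619 RPKM and PDGFRB from 0.764 to 0.202 RPKM. COL1A1 rose from 0.377 to 0.818 RPKM (adjusted p = 0.0276 from limma). The part of these marker differences in the complex I values was not tested. In bulk samples a change in the share of cells and a change in RNA per cell cannot be told apart.

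Most complex I genes differed little between the groups. Of the 36 genes, 2 rose in shRNA-UBC9 (NDUFA8 and NDUFV2) and 4 fell (NDUFB5, NDUFB6, NDUFS1 and NDUFA2) at an adjusted p below 0.05 from limma. Among all 12428 genes tested, 18.8% rose and 18.0% fell by the same rule. Thus 16.7% of the complex I genes were called in either direction, beside 36.8% of all genes tested. Only NDUFB5 also passed a 2-fold difference, a rule that 7.89% of all genes tested met. The median log2 fold change was 0.028 over the complex I genes and 0.005 over all genes tested, and the median size of the log2 fold change, whatever its sign, was 0.157 and 0.268. By sign alone, 19 genes lay above 0 and 17 below 0. All 36 genes passed the expression filter and were above 1 RPKM in every sample, so none owed its place in the test to 1 group.

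The precision was similar across the genes. Between 430 and 5018 reads lay behind each complex I gene in each sample, and the standard error of the log2 fold change ranged from 0.076 to 0.156. For the 30 genes that were not called, the log2 fold change lay between -0.245 and 0.259, and the bounds of all their 95% confidence intervals lay between -0.445 and 0.535. A 2-fold difference in either direction was thus outside the interval of each of these 30 genes. Smaller differences were not excluded by the same intervals. For 3 samples against 3, an exact permutation test of a single value cannot give a p below 0.1.

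**Figure D1:**
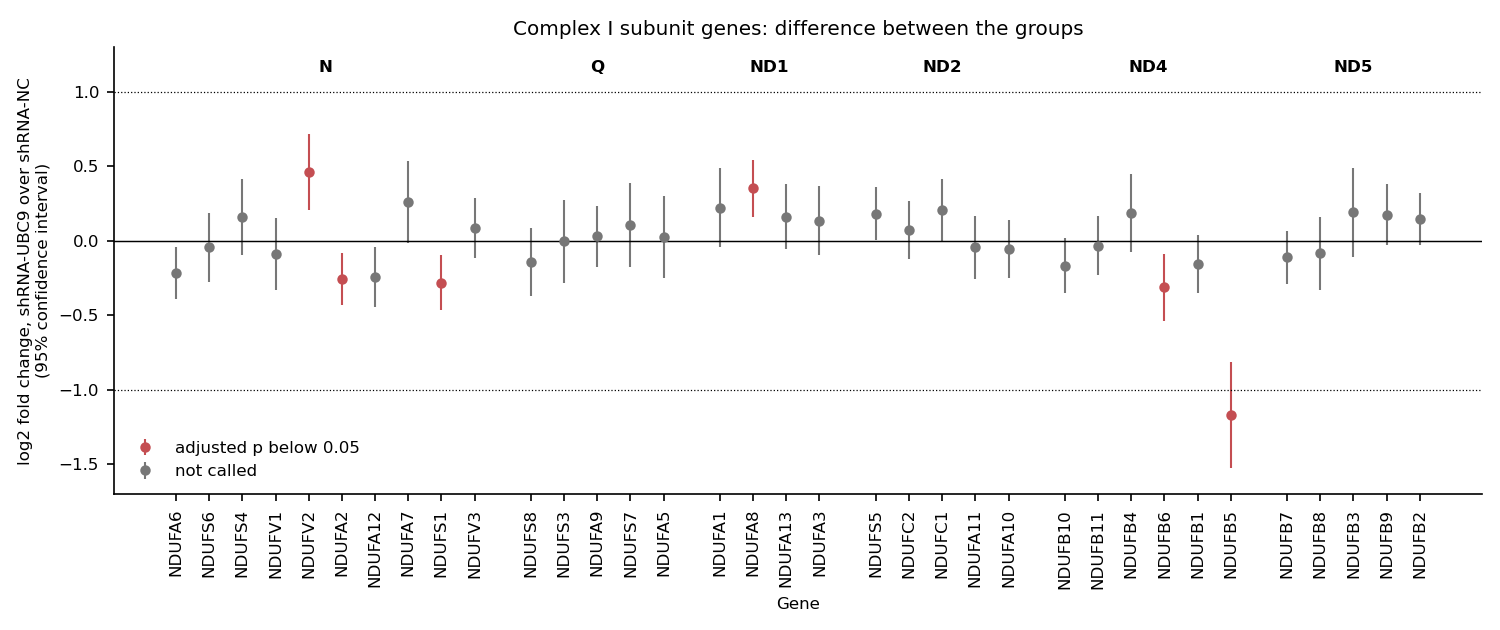
Log2 fold change (shRNA-UBC9 over shRNA-NC, on the log2(RPKM + 0.1) scale) of the complex I genes that are named here, grouped by assembly module. Points are estimates from 3 samples a group, bars are 95% confidence intervals, red marks an adjusted p below 0.05 and dotted lines mark 2-fold. NDUFB5 lies at -1.17, and every other gene lies between -0.31 and 0.46.

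NDUFB5, an accessory subunit of the ND4 module in the membrane arm, showed the largest difference of the 36 genes. It measured 5.93, 5.72 and 6.26 RPKM in shRNA-NC replicates 1 to 3. In shRNA-UBC9 it measured 2.03, 2.67 and 3.22 RPKM. Every knockdown sample was below every control sample, and the knockdown samples differed more among themselves than the controls did. The group means were 5.97 ± 0.27 and 2.64 ± 0.60 RPKM (SD, n = 3 each), so shRNA-UBC9 held 44.2% of the control level (log2 fold change -1.17, SE 0.16, adjusted p = 0.00103 from limma). The values rested on 1039, 1163 and 1243 reads in shRNA-NC and 430, 553 and 534 reads in shRNA-UBC9. NDUFB5 stayed called with each sample left out in turn, but without shRNA-UBC9 replicate 1 its log2 fold change was -0.998, just short of 2-fold.

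NDUFB5 lies on chr3:179604690-179627647, plus strand (GRCh38, GENCODE release 44), and its start is 41 bp from the start of MRPL47, which is transcribed the opposite way and encodes a protein of the mitochondrial ribosome. This pair was compared after the values had been seen. MRPL47 measured 21.6, 25.2 and 23.4 RPKM in shRNA-NC and 25.1, 27.4 and 26.8 RPKM in shRNA-UBC9. The ranges of the groups just overlapped, and MRPL47 was not called (log2 fold change 0.18, SE 0.09, adjusted p = 0.153 from limma). Its 95% interval, -0.03 to 0.38, did not reach the interval of NDUFB5, -1.53 to -0.81. The difference between the genes' fold changes was not itself tested.

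The other 3 genes that fell did so to between 80.1% and 83.9% of their control level. NDUFB6, a further accessory subunit of the ND4 module, measured 22.4, 24.4 and 27.0 RPKM in shRNA-NC and 19.3, 21.1 and 18.8 RPKM in shRNA-UBC9. The groups did not overlap, though the gap between them was small (log2 fold change -0.31, SE 0.10, adjusted p = 0.0357 from limma). NDUFS1, the core subunit of the N module that holds several of its iron-sulfur clusters, measured 9.87, 10.4 and 10.1 RPKM in shRNA-NC and 8.55, 7.97 and 8.44 RPKM in shRNA-UBC9. Its controls were tightly grouped and all above the knockdown samples (log2 fold change -0.28, SE 0.08, adjusted p = 0.0266). NDUFA2, an accessory subunit of the N module, measured 22.9, 23.2 and 24.8 RPKM in shRNA-NC and 19.6, 19.8 and 19.9 RPKM in shRNA-UBC9. The 3 knockdown values were nearly identical and below all controls (log2 fold change -0.26, SE 0.08, adjusted p = 0.0319). These 3 calls depended on having all 6 samples. NDUFA2 lost its call whichever sample was left out, with adjusted p-values from 0.0526 to 0.132. NDUFB6 was called only in the fit without shRNA-NC replicate 1, and NDUFS1 only in the fit without shRNA-UBC9 replicate 1. In the other 5 fits the adjusted p-values reached 0.14 for NDUFB6 and 0.103 for NDUFS1, with the direction kept.

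Both genes that rose did so by well under 2-fold. NDUFV2, a core subunit of the N module that carries an iron-sulfur cluster next to the flavin site, measured 25.4, 31.9 and 30.0 RPKM in shRNA-NC and 40.5, 43.3 and 36.3 RPKM in shRNA-UBC9. The groups were separate, and shRNA-UBC9 stood at 137% of the control mean (log2 fold change 0.46, SE 0.11, adjusted p = 0.0137 from limma). Without shRNA-UBC9 replicate 2 its adjusted p was 0.0526. NDUFA8, an accessory subunit of the ND1 module on the intermembrane-space side, measured 43.3, 49.8 and 46.3 RPKM in shRNA-NC and 60.8, 58.4 and 58.4 RPKM in shRNA-UBC9. Its lowest knockdown sample exceeded its highest control (log2 fold change 0.35, SE 0.08, adjusted p = 0.0126). NDUFA8 stayed called with each sample left out, with the adjusted p closest to the threshold without shRNA-NC replicate 3 (0.05 when rounded).

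**Figure D2:**
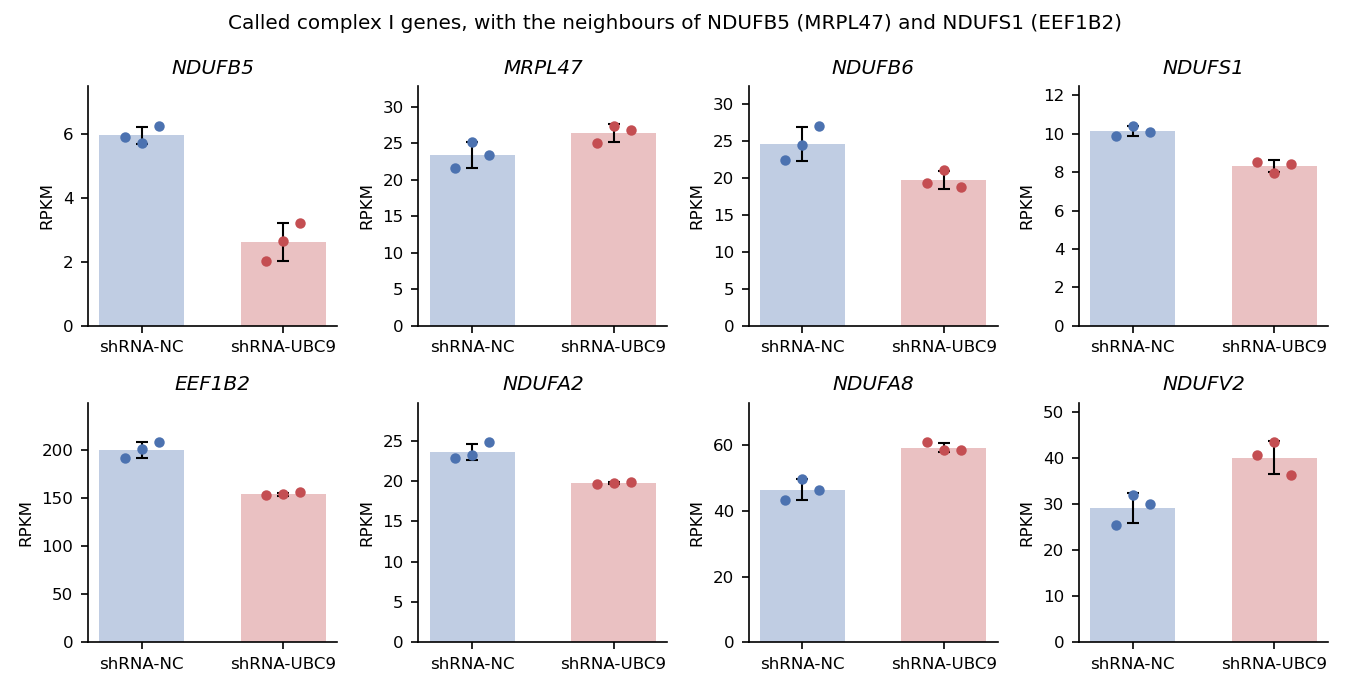
RPKM of the 6 called complex I genes and of MRPL47 and EEF1B2, the genes that start next to NDUFB5 and NDUFS1. Points are single samples, bars are means and whiskers are SD (n = 3 a group). NDUFB5 drops from about 5.97 to 2.64 RPKM while MRPL47 stands at 23.4 and 26.4 RPKM, and NDUFS1 and EEF1B2 are both lower in shRNA-UBC9.

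NDUFB6 (chr9:32553001-32573184) and NDUFA8 (chr9:122144058-122159779) lie on the same chromosome, both on the minus strand, and moved in opposite directions. NDUFS1 lies on chr2:206114817-206159509 and NDUFA2 on chr5:140638740-140647771, both on the minus strand, and NDUFV2 on chr18:9102630-9134345 on the plus strand (GRCh38, GENCODE release 44).

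The genes on either side of the threshold did not differ sharply. NDUFA6 (log2 fold change -0.22, adjusted p = 0.054) and NDUFA12 (-0.25, adjusted p = 0.0574), accessory subunits of the N module, lay just outside it in limma, with values of 39.8 to 42.6 against 35.5 to 36.5 RPKM and of 13.0 to 14.3 against 10.6 to 11.8 RPKM. Both were called lower under 4 of 5 other ways of scaling the samples. The groups did not overlap for 8 genes that were lower in shRNA-UBC9, namely the 4 called genes with NDUFA6, NDUFA12, NDUFB7 and NDUFB10, where 25.4% of all genes tested were of this kind. They did not overlap for 7 genes that were higher, namely both called genes with NDUFA7, NDUFA13, NDUFB2, NDUFC1 and NDUFS5, where 25.7% of all genes tested were. Both counts were below the share over all genes.

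The levels of the complex I genes spanned a wide range although the subunits are parts of 1 enzyme. The mean RPKM over the 6 samples was 77.6 times higher for the highest gene than for the lowest, with 5 genes above 50 RPKM, 23 from 10 to 50 and 8 below 10. The median gene stood at 23.3 RPKM, against 6.16 RPKM for all genes tested. NDUFS5, a small accessory subunit of the ND2 module, was the highest, at 222, 219 and 238 RPKM in shRNA-NC and 254, 254 and 263 RPKM in shRNA-UBC9. All its knockdown values were above its controls, without a call (log2 fold change 0.18, SE 0.08, adjusted p = 0.0958 from limma). NDUFA1, a short membrane-anchored subunit of the ND1 module, followed with 77.8, 85.2 and 96.4 RPKM in shRNA-NC and 108, 107 and 88.2 RPKM in shRNA-UBC9. Its ranges overlapped (log2 fold change 0.22, adjusted p = 0.164). NDUFB7, of the ND5 module, measured 78.3, 74.7 and 82.1 RPKM in shRNA-NC and 73.6, 71.4 and 72.3 RPKM in shRNA-UBC9. It was slightly lower in every knockdown sample, and the difference did not pass the test (log2 fold change -0.11, adjusted p = 0.285).

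At the low end were NDUFA5, NDUFB5 and NDUFV3. NDUFA5, an accessory subunit of the Q module, measured 2.73, 3.30 and 3.23 RPKM in shRNA-NC and 3.10, 3.49 and 2.84 RPKM in shRNA-UBC9. NDUFV3, an accessory subunit of the N module, measured 4.67, 4.67 and 4.53 RPKM in shRNA-NC and 4.61, 5.11 and 5.03 RPKM in shRNA-UBC9. Both overlapped between the groups (log2 fold changes 0.02 and 0.09, adjusted p = 0.893 and 0.468 from limma). The gene lengths behind RPKM, recovered from the values, ran from 531 to 12268 bases. NDUFB7 and NDUFS5 were the shortest at 531 and 548 bases, while NDUFA5 measured 9851 bases, NDUFV3 6345 and NDUFB5 5871. The lowest genes were thus divided by some of the longest models, and how much of the spread in level this accounts for was not tested.

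**Figure D3:**
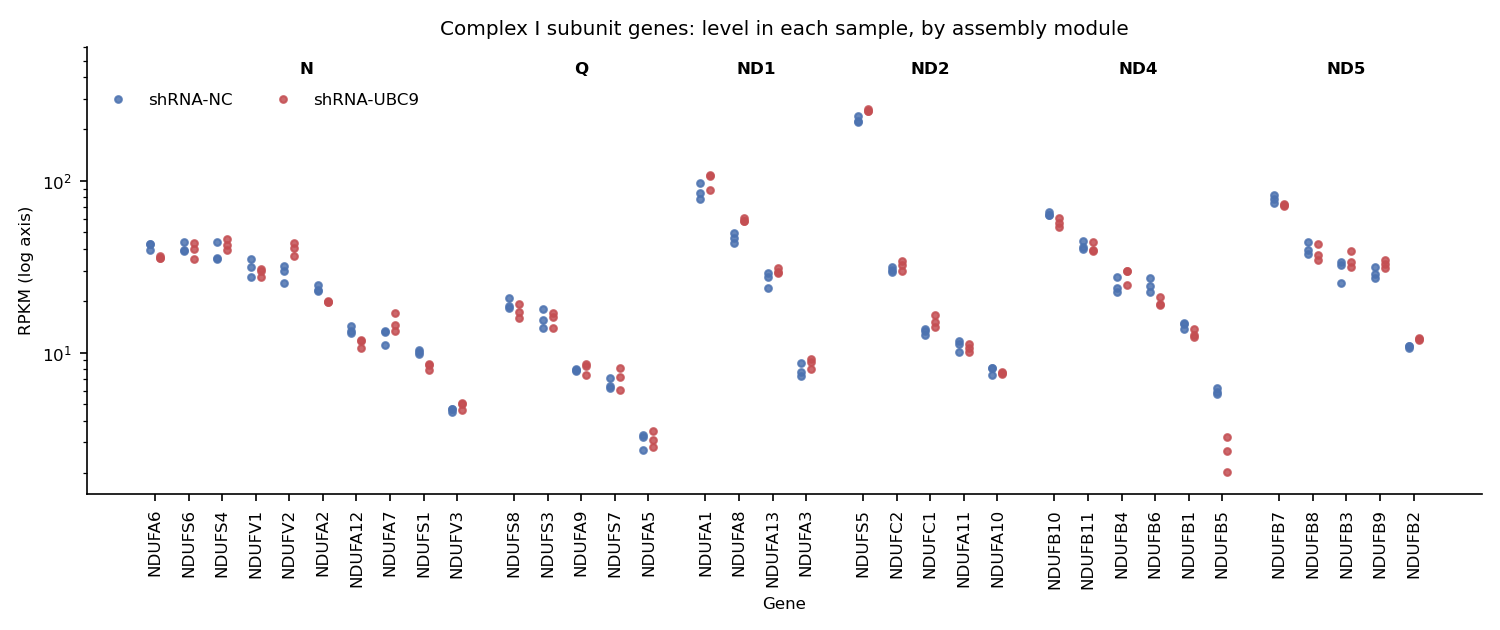
RPKM on a log axis of the complex I genes that are named here in each of the 3 shRNA-NC (blue) and 3 shRNA-UBC9 (red) samples, grouped by assembly module and ordered by the shRNA-NC mean within a module. The groups lie close together for most genes, while NDUFB5 in the ND4 group separates, with knockdown values from 2.03 to 3.22 RPKM below controls from 5.72 to 6.26 RPKM.

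Of the 7 nuclear core subunits 28.6% were called, beside 36.8% over all genes tested. NDUFV2 rose and NDUFS1 fell, as given above, and 5 were not called. With each sample left out in turn, 0 to 2 were called. NDUFV1, which binds the flavin and NADH, measured 34.9, 27.6 and 31.3 RPKM in shRNA-NC and 27.5, 29.7 and 30.7 RPKM in shRNA-UBC9. Its ranges overlapped (log2 fold change -0.09, adjusted p = 0.54 from limma). The N module core thus held NDUFV1 within its spread, NDUFV2 higher and NDUFS1 lower in the same libraries.

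The core subunits of the Q module carry the path to ubiquinone, and none of them was called. NDUFS3 measured 13.9, 18.0 and 15.5 RPKM against 17.1, 16.2 and 13.9 RPKM (log2 fold change 0.00, adjusted p = 0.986 from limma). No sample stood apart from the others, and the lowest NDUFS3 value of each group was 13.9 RPKM. NDUFS7, which holds the last iron-sulfur cluster before ubiquinone, measured 7.16, 6.25 and 6.43 RPKM against 6.09, 7.20 and 8.18 RPKM (0.11, adjusted p = 0.527). NDUFS8 measured 20.7, 18.1 and 18.7 RPKM against 15.8, 17.3 and 19.1 RPKM (-0.14, adjusted p = 0.294). In both genes shRNA-UBC9 replicate 3 was the highest knockdown sample and replicate 1 the lowest.

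In the main fit the share of genes called in either direction was 30% in the N module, 25% in the ND1 module and 33.3% in the ND4 module. The share over all genes tested was 36.8%, and in lists this small 1 call moves the share by much. In the N module 1 of 10 genes rose and 2 fell, with a median log2 fold change of -0.07, and the uncalled members were NDUFV1, NDUFV3, NDUFS4, NDUFS6, NDUFA6, NDUFA7 and NDUFA12. With the calls of NDUFA6 and NDUFA12 under 4 of the other scalings, 5 of the 10 were called. The share over all genes tested was 37% to 38% under those scalings. In the ND4 module 2 of 6 fell, with a median of -0.16, and NDUFB1, NDUFB4, NDUFB10 and NDUFB11 were not called. Under quantile normalization NDUFB10 was called as well, so 3 of the 6 were, against 38% over all genes tested. In the ND1 module 1 of 4 rose and all 4 had a log2 fold change above 0, from 0.136 for NDUFA3 to 0.351 for NDUFA8 (median 0.193), with NDUFA1 and NDUFA13 between. None was called among the 6 genes of the Q module (NDUFA5, NDUFA9 and the core genes; median 0.03), the 5 of the ND2 module (NDUFA10, NDUFA11, NDUFC1, NDUFC2 and NDUFS5; 0.07) or the 5 of the ND5 module (NDUFB2, NDUFB3, NDUFB7, NDUFB8 and NDUFB9; 0.145). The modules hold few genes, and no difference between modules was tested. Across the accessory subunits as a whole, 1 of 29 rose and 3 fell, with a median of 0.031. The share called was 13.8%, beside 36.8% over all genes tested.

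Summed over the 36 genes, RPKM was 1108.3, 1123.1 and 1196.1 in shRNA-NC and 1179.8, 1231.3 and 1177.4 in shRNA-UBC9. The ranges overlapped. Relative to the shRNA-NC mean of each gene, the median complex I gene stood at -0.04, -0.02 and 0.05 in the control libraries on the log2 scale. In the knockdown libraries it stood at -0.04, 0.12 and 0.03, so shRNA-UBC9 replicate 2 was the highest and replicate 1 matched the lowest control. Over all genes tested the same median lay between -0.03 and 0.02 in every library. The sum of the ND1 module was higher without overlap, at 157.6 to 179.1 RPKM in shRNA-NC and 186.4 to 206 RPKM in shRNA-UBC9. That of the ND2 module was as well, at 279.9 to 302.8 and 315.6 to 329 RPKM. Most of the ND2 sum was NDUFS5, at 219 to 238 and 254 to 263 RPKM, which was not called (adjusted p = 0.0958 from limma). Of the other ND2 genes, NDUFC1 was higher without overlap, and NDUFA10, NDUFA11 and NDUFC2 overlapped. Among all genes tested, 25.7% were higher without overlap. The ND4 module stood at 168.4 to 183.7 and 155.2 to 171.7 RPKM, with overlap. The sums of the N, Q and ND5 modules also overlapped between the groups. The highest gene of a module weighs most in such a sum.

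Promoter sequences are shown for the 4 called genes that have a single start in the RefSeq table (GRCh38.p14), to set the genes that rose beside genes that fell. RefSeq windows of 300 bases, 250 before the start and 50 after it, matched 31 of the 36 genes, and NDUFB5 was not among them. Each sequence below runs 5′ to 3′ on the strand of the gene from 120 bases before the RefSeq start to 10 bases after it. Capitals mark any match, on either strand, to TATAAA (the box of that name, bound by the TATA-binding protein), GCNTGCGC (the core of the site of nuclear respiratory factor 1, NRF1), CCGGAAGT (an ETS site, bound by GABP), AAGATGGCG (YY1) or AAGGTCA (the core site of the estrogen-related receptors). Overlaps between motifs were allowed. The stretches are chr18:9102579-9102708 (plus strand) for NDUFV2, chr9:122159770-122159899 (minus strand) for NDUFA8, chr9:32573150-32573279 (minus strand) for NDUFB6 and chr5:140647621-140647750 (minus strand) for NDUFA2.
NDUFV2: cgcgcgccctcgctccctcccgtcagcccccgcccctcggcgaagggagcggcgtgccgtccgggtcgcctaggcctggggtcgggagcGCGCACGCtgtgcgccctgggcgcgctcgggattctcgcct
NDUFA8: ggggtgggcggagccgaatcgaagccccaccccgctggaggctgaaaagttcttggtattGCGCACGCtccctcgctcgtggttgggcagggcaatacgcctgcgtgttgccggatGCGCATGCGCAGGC
NDUFB6: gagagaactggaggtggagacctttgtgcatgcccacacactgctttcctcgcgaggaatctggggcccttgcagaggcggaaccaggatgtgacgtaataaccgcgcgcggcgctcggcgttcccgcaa
NDUFA2: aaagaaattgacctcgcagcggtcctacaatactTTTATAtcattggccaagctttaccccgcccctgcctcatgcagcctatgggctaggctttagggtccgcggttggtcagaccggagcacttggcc

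Both genes that rose hold the NRF1 core in the printed stretch, 1 match in NDUFV2 and 4 overlapping or repeated matches in NDUFA8. NDUFA2 holds a TATA box match and NDUFB6 none of these motifs. Over the whole windows, the NRF1 core was found in 11 of 31 complex I genes (35.5%) and in 14.2% of all 27305 genes in the table. The 11 genes were NDUFA3, NDUFA5, NDUFA6, NDUFA8, NDUFA9, NDUFA11, NDUFA12, NDUFB4, NDUFS6, NDUFS7 and NDUFV2. Of these, 2 rose (18.2%, against 18.8% of all genes tested) and none fell (against 18.0%), with a median log2 fold change of 0.031. Of the 20 windows without the motif, none belonged to a gene that rose and 3 to genes that fell (15%), with a median of -0.045. NDUFA6 and NDUFA12, which hold the motif, were called lower under 4 of the other scalings of the samples. The 3 falls without the motif, NDUFA2, NDUFB6 and NDUFS1, lost their call in most fits that left out a sample. The counts are thus of a few genes, depend on the fit and come with no test. The share that rose among genes with the motif was near that over all genes. The YY1 motif was found in 6 of 31 windows (19.4%, against 2.14% of all genes) and none of those genes was called. The core site of the estrogen-related receptors was found in 4 (12.9%, against 4.80%), none of them called. The ETS site was found in 2 (6.45%, against 4.95%), NDUFA13 and NDUFS1, of which NDUFS1 fell. The TATA box was found in 3 (9.68%, against 14%), NDUFA2, NDUFA7 and NDUFA9, of which NDUFA2 fell. A match describes letters and does not show that a factor binds there.

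Genes listed as regulators of respiratory genes were themselves measured. Of 12 that passed the filter, 1 rose and 3 fell, and none passed 2-fold. The share called, 33.3%, was near the 36.8% over all genes tested. ESRRA, which encodes estrogen-related receptor alpha, measured 9.82 to 11.1 RPKM in shRNA-NC and 19.2 to 19.8 RPKM in shRNA-UBC9. The groups were far apart for their spread (log2 fold change 0.90, SE 0.08, adjusted p = 0.000219 from limma). GABPB1, a subunit of GABP, fell from 4.83 to 5.62 RPKM to 3.37 to 4.18 RPKM (-0.52, SE 0.11, adjusted p = 0.00931). TFB1M, a mitochondrial rRNA methyltransferase, fell from 4.98 to 5.16 RPKM to 3.53 to 3.94 RPKM (-0.45, SE 0.09, adjusted p = 0.00565). The gene NRF1 fell as well, from 4.77, 5.17 and 4.70 RPKM to 2.82, 3.88 and 3.75 RPKM (-0.49, SE 0.13, adjusted p = 0.0219). It was named after its value was seen, because of the promoter motif, and its adjusted p rose to 0.0545, 0.064 and 0.0566 without shRNA-NC replicate 1, 2 or 3. PPARGC1A, the coactivator PGC-1alpha, was at most 0.00978 RPKM in any sample, and PPARGC1B at most 0.476 RPKM, so neither was tested.

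Besides NDUFB5, 10 complex I genes have a protein-coding gene on the opposite strand that starts within 1000 bp upstream of them in GENCODE release 44. Genes that start inside the complex I gene, or whose GENCODE symbol is absent from the data, were not searched. These neighbours were chosen for comparison after values had been seen. Of the other called genes, only NDUFS1 had an expressed neighbour found by this search. EEF1B2, a translation elongation factor whose start is 76 bp from that of NDUFS1, measured 192, 201 and 208 RPKM in shRNA-NC and 153, 154 and 156 RPKM in shRNA-UBC9. It fell as well (log2 fold change -0.38, SE 0.08, adjusted p = 0.00612 from limma). MORN5, 129 bp from NDUFA8, was at 0 in every sample. For RNF113A, 99 bp from NDUFA1, the values were 7.96 to 8.13 RPKM in shRNA-NC and 12.9 to 15.7 RPKM in shRNA-UBC9, and it rose (0.84, adjusted p = 0.000538) while NDUFA1 was not called. OSCAR, an immunoglobulin-like receptor gene 36 bp from NDUFA3, rose from 4.81 to 8.12 RPKM to 16.9 to 22.3 RPKM (1.52, adjusted p = 0.000777) and NDUFA3 was not called. CPSF2, 52 bp from NDUFB1, fell (-0.37, adjusted p = 0.0166) and NDUFB1 was not called. The neighbours MRPL36, WDR4, VMAC and TSSK6, of NDUFS6, NDUFV3, NDUFA11 and NDUFA13, were not called either, and AKAP3, of NDUFA9, was below the filter. Whether the counting used strand is not given in the sources used here, so reads where such genes overlap could be assigned to either.

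The antisense genes that share names with complex I genes were low. NDUFV2-AS1 was at most 0.284 RPKM, NDUFB2-AS1 at most 0.465 RPKM and NDUFA6-AS1 at most 0.722 RPKM. Of 53 rows for pseudogenes of these genes, 52 were at 0 in every sample and the highest value was 0.0809 RPKM. How reads that match several places were treated is not given in the sources used here, so reads of a gene and its near-identical copies may have been counted together.

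The subunits encoded by mitochondrial DNA form the membrane arm together with the nuclear ones. Of the 7 mitochondrial ND genes 1 rose and none fell (14.3% called, beside 36.8% of all genes tested). Their median log2 fold change was -0.01. MT-ND1 measured 445, 425 and 363 RPKM in shRNA-NC and 530, 556 and 555 RPKM in shRNA-UBC9. All knockdown values were above the controls (log2 fold change 0.42, SE 0.10, adjusted p = 0.0111 from limma), and with no expression filter the adjusted p was 0.0853. MT-ND3 measured 356, 512 and 441 RPKM in shRNA-NC and 411, 368 and 312 RPKM in shRNA-UBC9 (-0.26, adjusted p = 0.216). MT-ND2 measured 729, 884 and 752 RPKM against 864, 914 and 822 RPKM (0.14, adjusted p = 0.296). Both overlapped between groups, as did MT-ND4, MT-ND4L, MT-ND5 and MT-ND6. The count depended on the scaling: under cyclic loess normalization 3 of the 7 rose, MT-ND1 (0.60, adjusted p = 0.00296 from limma), MT-ND2 (0.35, adjusted p = 0.0421) and MT-ND4 (0.31, adjusted p = 0.0485), and the other 4 scalings gave 1.

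The assembly factors, which build complex I and are not part of the finished enzyme, held more calls than the subunits. Of 19 genes, 2 rose and 6 fell, with a median log2 fold change of -0.11 and none past 2-fold. The gene for DMAC1 (TMEM261 in the files), which acts on the membrane arm, measured 4.34, 5.49 and 4.74 RPKM in shRNA-NC and 3.02, 3.09 and 3.33 RPKM in shRNA-UBC9. Its groups were well separated (-0.60, SE 0.11, adjusted p = 0.00414 from limma). ACAD9, which takes part in building the ND2 module, measured 11.9, 11.8 and 11.1 RPKM against 6.97, 8.49 and 8.86 RPKM (-0.52, SE 0.11, adjusted p = 0.00715). TMEM70, which also serves ATP synthase assembly, went the other way, from 6.73, 6.97 and 6.00 RPKM to 8.58, 10.1 and 9.16 RPKM (0.49, SE 0.10, adjusted p = 0.00658). These 3 calls held with each sample left out, while the number of called factors fell from 8 to 4 without shRNA-NC replicate 1, shRNA-NC replicate 3 or shRNA-UBC9 replicate 2, to 5 without shRNA-NC replicate 2, and was 6 or 7 in the other fits. The share called, 42.1%, was near the 36.8% over all genes tested.

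The other respiratory complexes had few calls. In complex II 1 of 3 genes rose, SDHB, an iron-sulfur subunit, at 33.0, 34.3 and 31.2 RPKM against 39.8, 42.7 and 40.8 RPKM (log2 fold change 0.32, SE 0.08, adjusted p = 0.0146 from limma). Its adjusted p was 0.0705 without shRNA-NC replicate 3 and 0.063 without shRNA-UBC9 replicate 2, and SDHD was not analysed here. In complex III 1 of 9 fell, UQCRB, at 11.7, 14.5 and 15.2 RPKM against 11.0, 11.1 and 10.3 RPKM (-0.34, adjusted p = 0.0434). In ATP synthase 2 of 18 fell, ATP5A1 (-0.30, adjusted p = 0.0255) and ATP5H (-0.23, adjusted p = 0.0458), with a median of -0.11. UQCRB and ATP5A1 each kept the call in 1 of the 6 fits that left out a sample, and ATP5H in none. None of the 11 genes of complex IV was called, with log2 fold changes from -0.019 to 0.148. The share called was 11.1% in complex III, 0% in complex IV and 11.1% in ATP synthase, below the 36.8% over all genes tested. In complex II it was 33.3% of 3 genes, near that share. None of these lists held a gene past 2-fold.

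**Figure D4:**
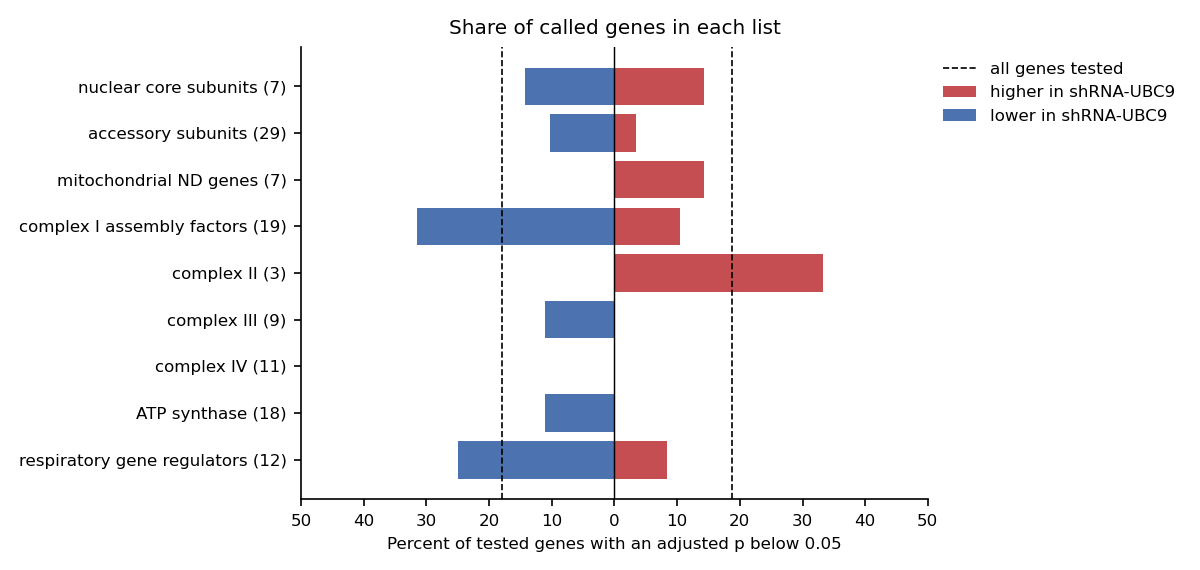
Percent of the tested genes of each list that rose (red, to the right) or fell (blue, to the left) in shRNA-UBC9 at an adjusted p below 0.05, with the number tested in brackets. Dashed lines mark 18.8% higher and 18.0% lower over all genes tested. The assembly factors and regulators reach past the line for lower genes, complex II with 3 genes past the line for higher genes, and complex IV has no called gene.

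Some genes with related names stand outside the rule. NDUFAB1, the mitochondrial acyl carrier protein, is part of complex I but its symbol has no number after NDUFA. It measured 23.0, 24.2 and 25.3 RPKM in shRNA-NC and 33.2, 39.1 and 35.1 RPKM in shRNA-UBC9. All knockdown values exceeded the controls, and it rose to 148% of the control mean (log2 fold change 0.56, SE 0.09, adjusted p = 0.00247 from limma). It stayed called with each sample left out. NDUFA4, a subunit of complex IV, measured 18.9, 19.7 and 21.7 RPKM against 20.1, 21.8 and 20.8 RPKM and was not called (0.06, adjusted p = 0.636). NDUFA4L2 was at most 0.202 RPKM and was not tested. NDUFC2-KCTD14, a readthrough of NDUFC2 and its neighbour, was at 0 in 1 sample of each group and at most 1.89 RPKM, and reads it shares with NDUFC2 cannot be told apart here.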

How the data were processed

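T24 cells carrying shRNA-NC or shRNA-UBC9 were profiled by RNA-seq in 3 samples each. Reads were trimmed and aligned to the human genome (GRCh38) by the authors with CLC Biomedical Genomics Workbench, and the authors deposited 1 RPKM value per gene and sample. The annotation release, strandedness and treatment of multi-mapping reads are not given in the sources used here. RPKM corrects for gene length and total mapped reads, not for RNA composition. Because low RPKM values are whole multiples of what 1 read is worth, reads, gene lengths and depth were recovered: for 12427 of 12428 tested genes the values were whole within 0.005 reads. The absolute total was taken as the largest that made gene lengths whole as well. Genes of at least 0.5 RPKM in at least 3 samples were compared by limma 3.58.1 in R 4.3.3 (eBayes with an intensity trend) on log2(RPKM + 0.1), which understates changes of low genes, with Benjamini-Hochberg adjustment over all genes tested. The scripts were tested on simulated data. The files hold no columns of the authors' own comparisons.

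The complex I genes and the gene lists were chosen with earlier results of these data known. Named were the called genes, the 3 highest and 3 lowest, the core subunits, and up to 3 genes of each other list by adjusted p (all genes past 2-fold and 0.05 besides) and the genes outside the rule. Values of some genes are not reported here, though counts and sums cover all 36 complex I genes. Modules follow general knowledge of complex I. Positions are from GENCODE release 44, with neighbours that start within 1000 bp upstream on the opposite strand, and promoters from RefSeq (GRCh38.p14). Alternatives covered the pseudocount, filter, scaling, trend, a replicate block, each sample left out and, chosen after seeing the data, voom on the recovered reads. Python 3.11.15, pandas 2.3.3 and matplotlib 3.10.9 were used besides.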

Additional observations from a re-analysis of the deposited data

How the results depend on the processing

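Of the 6 calls, all were kept under both other pseudocounts, the stricter filter, the 5 other scalings and voom on the recovered reads, an alternative chosen after seeing the data. With no filter 5 were kept, as without the intensity trend, and NDUFB6 was the call lost in both. Quantile normalization gave 7 lower complex I genes in place of 4, with NDUFA6, NDUFA12 and NDUFB10 added, and cyclic loess normalization added NDUFS5 to the higher genes. Voom called 2340 genes higher and 2263 lower over all genes, beside 2339 and 2237. With a pseudocount of 1, NDUFB5 had a log2 fold change of -0.948, so 0 genes passed 2-fold. With each sample left out in turn, 1 to 2 genes rose, 1 to 2 fell and 0 to 1 passed 2-fold: NDUFV2 was lost without shRNA-UBC9 replicate 2, NDUFB5 was just under 2-fold without shRNA-UBC9 replicate 1, 2 genes fell without shRNA-NC replicate 1 or shRNA-UBC9 replicate 1, and 1 fell without any other sample. These fits hold fewer samples. NDUFB5 and NDUFA8 were called in all 18 alternatives, with log2 fold changes from -1.319 to -0.948 and from 0.301 to 0.407. NDUFV2 was called in 17, NDUFS1 in 12, NDUFA2 in 11 and NDUFB6 in 10.

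With the replicate number as a block, 2 complex I genes rose and 1 fell (NDUFB5). Same-numbered samples did not deviate together (correlations of -0.367, 0.073 and -0.17). Between samples of the groups with different numbers the correlations ran from -0.318 to 0.526. The highest was between shRNA-NC replicate 1 and shRNA-UBC9 replicate 3, the libraries with the fewest mapped reads (29850000 and 28220000). With 3 samples a group, these correlations cannot show which samples shared a preparation or batch, and this was not tested. No called gene changed direction in any alternative. Genes that were not called and lay near 0 changed sign in 18 fits of single genes, at values between -0.059 and 0.094, and the median of the complex I genes lay between -0.022 and 0.068. The median of all genes tested stayed between -0.045 and 0.021.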
